A study of Mus musculus with 23 samples.

Results

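The wounding response of the mouse ear 24 h after a punch was compared between wild-type mice and mice homozygous for the cub allele of Rhbdf2. The quantity described is the interaction, the log2 change from 0 h to 24 h in cub minus the same change in wild type. It rests on 12 of the 23 arrays, 3 in each of 4 groups chosen by the sample titles. Wild-type mice were C57BL/6J, Rhbdf2+/+, and cub mice were B6.Cg-Rhbdf2cub/J, Rhbdf2cub/cub, and all were 4-week-old females. The 0 h groups are labelled as controls. The 24 h groups were sampled from ear pinna with a 3-mm biopsy punch around a 2-mm hole, which leaves a rim of 1 mm. The labels do not say how large a piece was taken at 0 h, so the pieces at 0 h and 24 h may differ in the tissue they hold, in both genotypes. The design text gives 3 mice per time point, and each array is labelled a biological replicate. The cub allele is carried in every cell of the mouse, so the cell in which a difference arises cannot be told from these groups.

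Rhbdf2 encodes iRhom2, a catalytically inactive rhomboid protein that carries the protease ADAM17 to the cell surface. ADAM17 releases membrane-bound ligands of the epidermal growth factor receptor (EGFR), such as heparin-binding EGF and amphiregulin, and also tumour necrosis factor. EGFR signalling acts through MAP kinases and AP-1 transcription factors and drives keratinocytes to migrate and divide at a wound edge. The cub allele removes part of the cytoplasmic N-terminal domain, and cub mice are known for rapid closure of ear holes. The study compared the genotypes at each time after wounding, and an interaction asks a further question, whether the change after wounding itself differed.

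The lists of keratinocyte, muscle and cartilage genes, which mark the tissues of the ear, all lay above the array medians of 6.37 to 6.46. In wild type at 0 h the mean level was 9.85 to 9.87 over 26 basal and bulge keratinocyte genes, 9.91 to 10.21 over 35 skeletal muscle genes and 7.98 to 8.16 over 20 cartilage genes. Replicates correlated at r = 0.9961 to 0.9981 across rows, and no pair of arrays was identical. One array stood apart in its tissue content. Replicate 2 of cub at 0 h had a mean of 9.53 over 14 adipocyte genes, against 8.58 and 8.96 in the other cub 0 h arrays and at most 8.69 in wild type at 0 h. Among the 0 h arrays it was also highest in the macrophage list, at 8.14, in 4 erythroid genes, at 7.40 against at most 6.65 in the others, and in 14 mast cell genes, at 7.28 against at most 7.01. In bulk tissue, fewer cells of a type and less RNA per cell cannot be told apart.

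The wound response was large in both genotypes. At an adjusted p under 0.05 in limma, 8543 of 19938 genes (42.8%) differed between 24 h and 0 h in wild type and 9177 (46%) in cub. Krt6a, a keratin of activated keratinocytes, rose by 4.55 ± 0.14 on the log2 scale in wild type and by 4.69 ± 0.14 in cub (log2 difference ± SE, n = 3 a group). Its interaction of 0.14 ± 0.20 did not pass the test (adjusted p = 0.895). Of 23 wound-edge keratinocyte genes, 21 rose in wild type and 23 in cub, and of 37 inflammatory cytokines and chemokines, 32 rose in wild type and 30 in cub. Of all genes, 20.5% rose in wild type and 21.1% in cub, and 22.4% and 24.9% fell.

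Against that response the interaction was called for 200 of 19938 genes (1%), 51 higher in cub (0.256%) and 149 lower (0.747%). An unadjusted p under 0.05 was found for 2193 genes. Over all genes the median interaction was 0.00, with quartiles of -0.09 and 0.08. Among the called genes, 11 of the higher and 8 of the lower differed at least 2-fold, and the median size was 0.67 for the higher and 0.53 for the lower. The number of calls moved with single arrays. It was 83 without wild-type 0 h replicate 2, 111 without wild-type 0 h replicate 3, 118 without cub 0 h replicate 1, 90 without cub 0 h replicate 2, 317 without cub 24 h replicate 2 and 102 without cub 24 h replicate 3. A fit of only the 12 arrays called 74 genes. When each array was centred on its median, 69 genes were higher and 120 lower, a larger share of higher calls.

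By the signs of the mean changes alone, most called genes moved the same way after the punch in both genotypes. Among the 51 higher genes, 41 rose in both, 5 fell in both and 5 rose in cub alone. Of the 149 lower genes, 119 fell in both, 13 rose in both and 17 fell in cub but not in wild type. The signs take no account of whether a change was called. Lgr5 counts as a fall in both, with a wild-type change of -0.11 ± 0.10 (adjusted p = 0.44). The same share over all genes was not counted. The called genes were also split by the time at which the genotypes lay further apart. For 33 higher and 87 lower genes the gap was larger at 24 h, and 0 of the 33 and 7 of the 87 also had a called gap at 0 h. For 18 higher and 62 lower genes it was larger at 0 h, so unwounded ears differed and the gap narrowed or turned by 24 h. At 0 h the genotype gap itself was called for 17 of those 18 and 60 of those 62 genes, and at 24 h for 32 of the 33 and 79 of the 87. The split was made on these gaps, so the counts are a description. Over all genes the gap was called for 5.25% at 0 h (3.33% higher in cub, 1.93% lower) and for 5.68% at 24 h (2.24% higher, 3.44% lower).

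**Figure D1:**
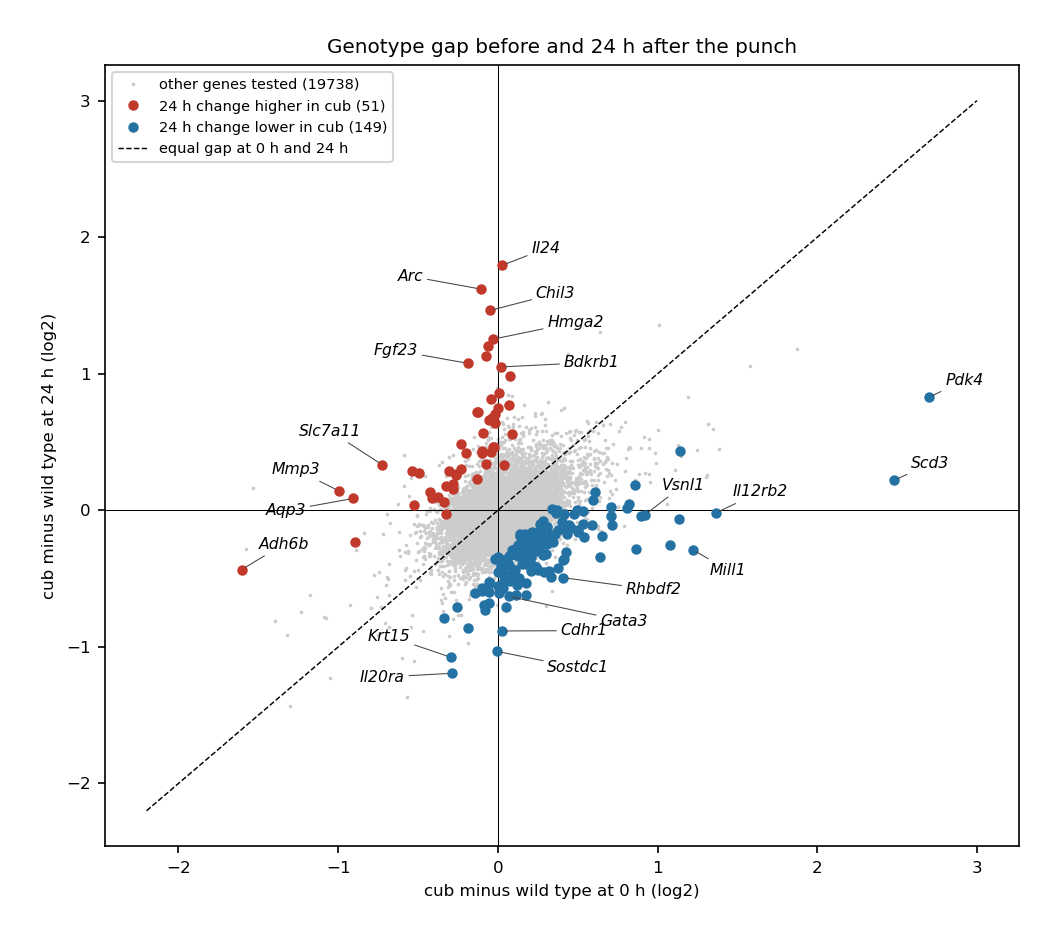
Cub minus wild type at 0 h (x axis) against cub minus wild type at 24 h (y axis), both in log2 units, for the 19938 genes tested, with the 51 genes called higher in red and the 149 called lower in blue. Points on the dashed line have equal gaps; Il24, Arc and Chil3 lie near 0 on the x axis and high on the y axis, while Pdk4 and Scd3 lie far to the right.

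Rhbdf2 itself was among the called genes. Its level was 8.76, 8.69 and 8.64 in the wild-type arrays at 0 h and 8.57, 8.85 and 9.01 at 24 h. In cub it was 9.14, 9.07 and 9.11 at 0 h and 8.45, 8.30 and 8.20 at 24 h. Cub was above wild type without overlap before the punch and below it without overlap 24 h after. The cub change was a fall of 0.79 ± 0.09 (adjusted p = 1.3e-07), the wild-type change was 0.11 ± 0.09 (adjusted p = 0.345), and the interaction was -0.90 ± 0.12 (adjusted p = 0.000676). Where the probes of Rhbdf2 lie relative to the cub lesion was not examined, so these levels are a weak check of the labels and may not measure the whole transcript.

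The proteases of the wound edge held 4 of the 51 higher genes. Of 24 members tested, 4 were called higher (16.7%, against 0.256% of all genes) and 0 lower. The median interaction was 0.11 against 0.00 over all genes. The list was written with earlier results of these data known, so its share is no independent evidence. The same holds for every list below, whose counts stand beside 1% of all genes called (0.256% higher, 0.747% lower). The share of all genes with a positive or a negative interaction was not counted. Mmp1a encodes an interstitial collagenase, and Mmp1b is its close copy. Mmp3 encodes stromelysin, which cleaves matrix proteins and activates other metalloproteinases, and Plau encodes urokinase, which turns plasminogen into plasmin. Mmp1b, Mmp3 and Mmp1a lie in this order on chromosome 9 with no other protein-coding gene between them. Their RefSeq promoters (assembly GRCm38.p6, the 250 bases before the listed start) are shown because all of them hold TGAGTCA, a sequence that AP-1 factors bind. Capitals mark TGAGTCA and the TATAAA that follows it.
Mmp1b promoter, chr9:7388027-7388276, minus strand: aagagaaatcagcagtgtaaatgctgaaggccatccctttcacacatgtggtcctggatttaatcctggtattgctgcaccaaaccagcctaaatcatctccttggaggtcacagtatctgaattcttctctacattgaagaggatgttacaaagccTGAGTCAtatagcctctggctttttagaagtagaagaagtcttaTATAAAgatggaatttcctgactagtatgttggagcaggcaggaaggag
Mmp3 promoter, chr9:7445572-7445821, plus strand: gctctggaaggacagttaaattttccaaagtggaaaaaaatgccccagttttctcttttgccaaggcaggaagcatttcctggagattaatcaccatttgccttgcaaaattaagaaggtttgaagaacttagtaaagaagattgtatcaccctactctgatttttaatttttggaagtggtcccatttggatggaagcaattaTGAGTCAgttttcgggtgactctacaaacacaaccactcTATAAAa
Mmp1a promoter, chr9:7463891-7464140, plus strand: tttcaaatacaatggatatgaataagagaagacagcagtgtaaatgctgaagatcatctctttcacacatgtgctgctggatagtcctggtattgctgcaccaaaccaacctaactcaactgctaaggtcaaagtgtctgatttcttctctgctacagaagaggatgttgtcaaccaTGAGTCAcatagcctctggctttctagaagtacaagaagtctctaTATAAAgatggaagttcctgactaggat

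The first base of TGAGTCA lay 93 bases before the start in Mmp1b, 46 in Mmp3 and 73 in Mmp1a. The first base of TATAAA lay 49, 7 and 28 bases before it. Both letter runs were searched on both strands, the former as TGANTCA, and they do not overlap in these promoters. TGANTCA was found in 7 of the 39 higher genes that had a listed promoter (17.9%), in 7 of 113 lower genes (6.19%) and in 6.87% of all 27025 promoters of the same length. The 7 higher genes were Mmp1a, Mmp1b, Mmp3, Psg18, Psg28, Cyp3a13 and D730003I15Rik, so 2 families of related genes account for most of them. TATAAA was found in 20.5% of the higher genes, 7.96% of the lower genes and 13% of all promoters. A match is a description of the letters and not of binding.

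The neighbouring metalloproteinase genes reached the interaction in different ways. Mmp1a was at 4.54, 4.61 and 4.5 in wild type at 0 h and 5.44, 5.79 and 5.76 at 24 h, and in cub at 4.47, 4.77 and 4.63 and then 6.78, 6.60 and 6.57. The genotypes overlapped before the punch and were separate 24 h after it, with an interaction of 0.91 ± 0.12 (adjusted p = 0.000346). Mmp1b rose by 2.69 ± 0.13 in wild type and 3.53 ± 0.13 in cub, an interaction of 0.84 ± 0.19 (adjusted p = 0.0335). Mmp1a and Mmp1b are close copies whose probes may share signal. The Mmp1b call was lost on leaving out any 1 of 7 of the 12 arrays, with a highest adjusted p of 0.0954 without wild-type 0 h replicate 2.

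Mmp3 differed at the start instead. Its level was 8.74, 9.07 and 9.11 in wild type at 0 h against 8.20, 7.66 and 8.07 in cub, and 11.35, 11.21 and 11.35 against 11.54, 11.38 and 11.42 at 24 h. Unwounded cub ears lay below all wild-type ears, and after 24 h all cub arrays lay just above. The gap was -1.0 ± 0.12 at 0 h (adjusted p = 6.82e-05) and 0.14 ± 0.12 at 24 h (adjusted p = 0.616), and the interaction was 1.14 ± 0.17 (adjusted p = 0.00162). Plau followed the same course, with a gap of -0.42 ± 0.08 at 0 h, 0.13 ± 0.08 at 24 h and an interaction of 0.56 ± 0.11 (adjusted p = 0.0135).

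Il24 had the largest positive interaction of all genes tested. IL-24 is a cytokine of the IL-20 subfamily that keratinocytes and myeloid cells make in injured skin, and it signals through receptors that contain IL20RB. Its level was 4.97, 4.93 and 4.90 in wild type at 0 h and 5.07, 4.86 and 4.95 in cub. By 24 h it stood at 7.32, 7.19 and 7.38 in wild type and 9.16, 8.78 and 9.33 in cub. The genotypes overlapped before the punch, and the lowest cub array at 24 h lay above the highest wild-type array. All of its 0 h values were below the array medians of 6.37 to 6.46. Il24 rose by 2.36 ± 0.11 in wild type and 4.13 ± 0.11 in cub, so the increase was 3.4-fold larger in cub (interaction 1.77 ± 0.16, adjusted p = 7.32e-06).

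Il19, which lies near Il24 on chromosome 1 and encodes a related cytokine, rose by 1.05 ± 0.10 in wild type and 1.71 ± 0.10 in cub. Its interaction was 0.66 ± 0.14 (adjusted p = 0.0245), and the call was lost on leaving out any 1 of 6 arrays (highest adjusted p = 0.0733, without wild-type 0 h replicate 3). The receptor subunit gene Il20ra went the other way. Il20ra was at 9.19, 9.45 and 9.22 in wild type at 0 h and 8.37, 8.01 and 8.29 at 24 h, and in cub at 9.12, 9.07 and 8.80 and then 6.72, 7.19 and 7.18. All cub arrays were below all wild-type arrays at both times. The gap was -0.29 ± 0.13 at 0 h (adjusted p = 0.219) and -1.19 ± 0.13 at 24 h (adjusted p = 9.47e-06). Il20ra fell by 1.06 ± 0.13 in wild type and by 1.97 ± 0.13 in cub, an interaction of -0.90 ± 0.18 (adjusted p = 0.0166, and 0.0505 without cub 0 h replicate 2). Of 10 tested genes of this cytokine and receptor family, 2 were called higher and 1 lower (30%, against 1% of all genes), and the median was -0.04. The members chosen after their values were seen, Il20 at 0.38 (adjusted p = 0.488) and Il20rb at -0.52 (adjusted p = 0.0599), did not pass.

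Il33, an alarmin stored in epithelial and stromal nuclei, was the 1 called member of 37 inflammatory cytokines and chemokines, whose median was 0.14. It was at 10.29 ± 0.12 in wild type and 9.80 ± 0.04 in cub at 0 h (SD, n = 3), and at 10.58 ± 0.18 and 10.85 ± 0.24 at 24 h. The gap was negative at 0 h (adjusted p = 0.00713) and not called at 24 h (adjusted p = 0.138), and the interaction was 0.76 ± 0.15 (adjusted p = 0.0119). Bdkrb1 encodes the kinin B1 receptor, which is induced by injury. It was at 6.59, 6.35 and 6.37 in wild type at 0 h and 7.44, 7.60 and 7.29 at 24 h, and in cub at 6.50, 6.56 and 6.31 and then 8.41, 8.57 and 8.50. The genotypes overlapped at 0 h and were separate at 24 h, with an interaction of 1.03 ± 0.13 (adjusted p = 0.000313).

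**Figure D2:**
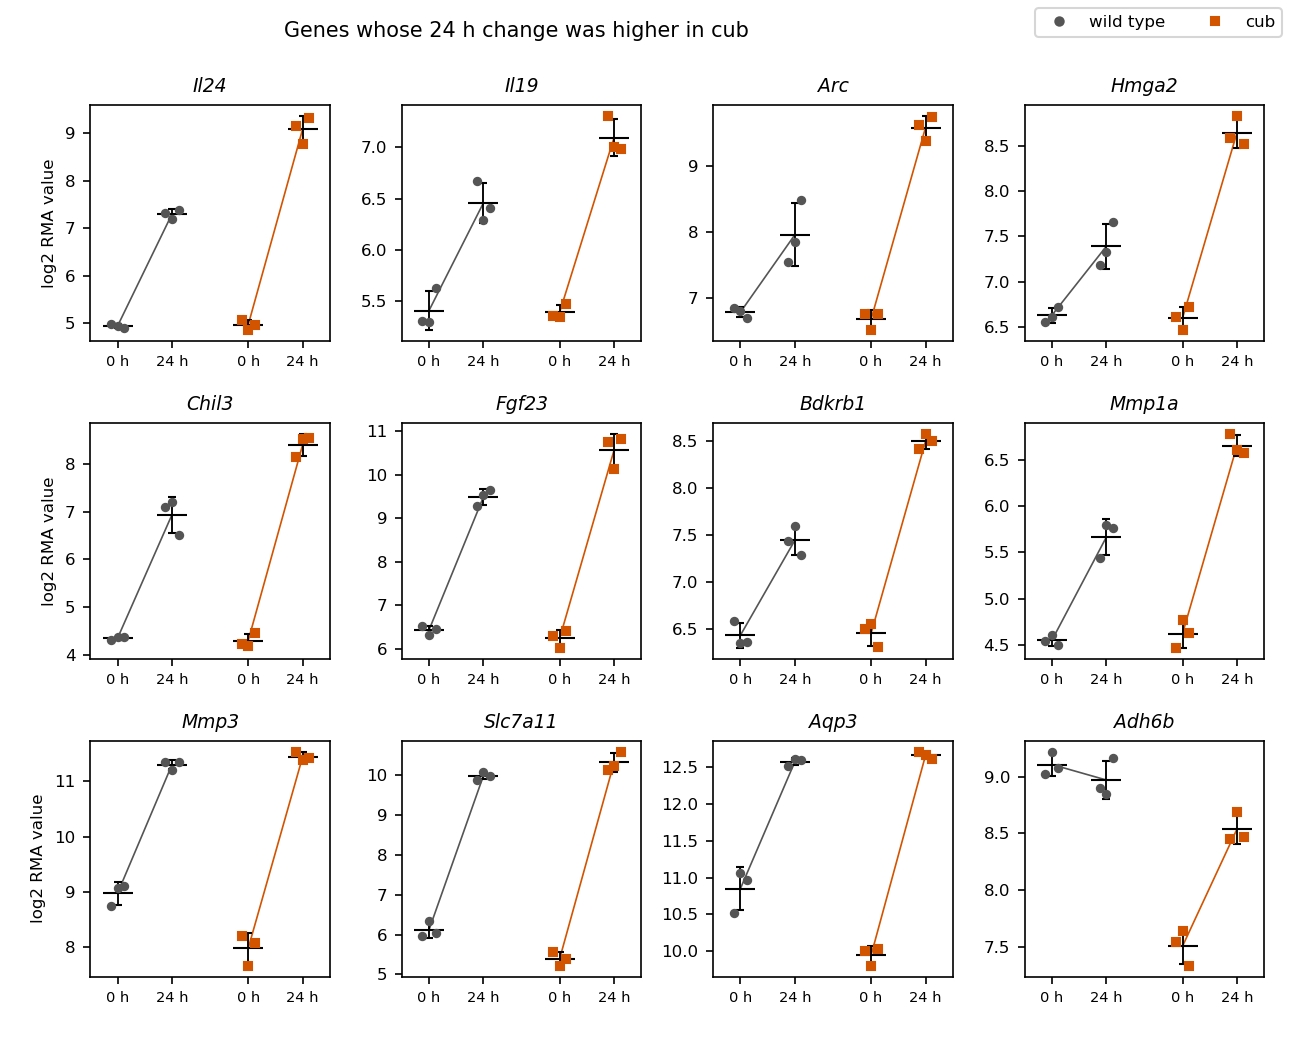
Log2 RMA values of 12 genes whose 24 h change was higher in cub, with each array as a point (wild type grey circles, cub orange squares), the group mean as a horizontal bar and the SD (n = 3) as whiskers, at 0 h and 24 h. Il24, Arc, Hmga2 and Bdkrb1 start level and part by 24 h, whereas Mmp3 and Aqp3 start lower in cub and end about level.

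Arc and Hmga2 were also level at 0 h and apart at 24 h. Arc is an immediate early gene best known from neurons. It was at 6.85, 6.81 and 6.70 in wild type at 0 h and 7.54, 7.85 and 8.48 at 24 h, and in cub at 6.76, 6.52 and 6.76 and then 9.62, 9.38 and 9.73. The increase was 1.17 ± 0.15 in wild type and 2.90 ± 0.15 in cub, an interaction of 1.73 ± 0.21 (adjusted p = 0.000305). Of 28 immediate early genes tested, Arc was the 1 called member, and the median of the list was 0.09.

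Hmga2, an architectural chromatin protein of embryonic tissue, was at 6.56, 6.61 and 6.72 in wild type at 0 h and 7.18, 7.33 and 7.66 at 24 h. In cub it was at 6.61, 6.47 and 6.72 and then 8.58, 8.83 and 8.52. No cub array at 24 h overlapped wild type, and the interaction was 1.28 ± 0.15 (adjusted p = 0.000305). Hmga2 and Stk17b, a kinase of the DAPK family (0.47 ± 0.11, adjusted p = 0.0402), were the 2 called members of 23 wound-edge keratinocyte genes (8.7%, against 1% of all genes), of which 19 had a positive interaction (median 0.17). The Stk17b call was lost on leaving out any 1 of 8 arrays, with a highest adjusted p of 0.113 without cub 24 h replicate 3.

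Fgf23, a hormone of phosphate balance made mainly in bone, rose from 6.43 ± 0.10 to 9.49 ± 0.18 in wild type and from 6.24 ± 0.20 to 10.56 ± 0.38 in cub, an interaction of 1.27 ± 0.21 (adjusted p = 0.00364). Psg18, of the pregnancy-specific glycoprotein family, rose by 1.06 ± 0.14 and 2.33 ± 0.14, an interaction of 1.27 ± 0.20 (adjusted p = 0.00219). Related copies of Psg genes may share probe signal. Gm11545 had an interaction of 0.86 ± 0.17 (adjusted p = 0.0139). E2f7, a repressor of the cell cycle, had one of 0.86 ± 0.20 (adjusted p = 0.0395), and its call was lost on leaving out any 1 of 9 arrays (highest adjusted p = 0.11, without wild-type 0 h replicate 3).

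Among genes of myeloid cells, Chil3, a chitinase-like protein of macrophages and neutrophils, was at 4.31, 4.37 and 4.37 in wild type at 0 h and 7.10, 7.20 and 6.50 at 24 h. In cub it was at 4.24, 4.19 and 4.47 and then 8.13, 8.52 and 8.54. All cub arrays at 24 h lay above all wild-type arrays, and the interaction was 1.51 ± 0.19 (adjusted p = 0.000313). Saa3, an acute-phase apolipoprotein of inflamed tissue, rose by 3.14 ± 0.19 and 4.34 ± 0.19, an interaction of 1.21 ± 0.26 (adjusted p = 0.029). Its call was lost on leaving out any 1 of 8 arrays, with a highest adjusted p of 0.0835 without cub 0 h replicate 2.

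Of 20 tested neutrophil genes 0 were called (against 1% of all genes) and 17 had a positive interaction, with a median of 0.32 (0.00 over all genes). The mean level of the list was 8.42 to 8.63 in wild type at 24 h and 8.69 to 9.07 in cub, after 5.77 to 5.87 and 5.75 to 5.86 at 0 h. Of 21 macrophage genes, Chil3 was the 1 called member, 15 had a negative interaction and the median was -0.07. The macrophage list had means of 7.91 to 8.26 in wild type and 8.30 to 8.62 in cub at 24 h, and 7.47 to 7.61 and 7.61 to 8.14 at 0 h. The part of cell numbers in the Chil3 and Saa3 results was not tested.

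Genes of redox balance were called in both directions. Slc7a11 encodes the cystine carrier of system xc-, which supplies glutathione synthesis, and is a target of the transcription factor NRF2. It was at 5.96, 6.35 and 6.03 in wild type at 0 h and 5.57, 5.22 and 5.38 in cub, and at 9.89, 10.08 and 9.99 against 10.14, 10.23 and 10.59 at 24 h. The cub arrays lay below wild type before the punch and above it afterwards, without overlap at either time. The gap was -0.72 ± 0.15 at 0 h (adjusted p = 0.00669), and at 24 h it was 0.33 ± 0.15 and not called (adjusted p = 0.227). The increase was 3.87 ± 0.15 in wild type and 4.93 ± 0.15 in cub, and the interaction was 1.06 ± 0.21 (adjusted p = 0.0166). The adjusted p was at most 0.0582, without wild-type 0 h replicate 2, and the call was also lost without cub 0 h replicate 2 or cub 24 h replicate 3.

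Gsr, glutathione reductase, rose by 1.06 ± 0.07 and 1.5 ± 0.07, an interaction of 0.44 ± 0.09 (adjusted p = 0.0225). The gap of Gsr was -0.28 ± 0.07 at 0 h (adjusted p = 0.0134) and 0.16 ± 0.07 at 24 h (adjusted p = 0.185). Cat, catalase, fell by 0.64 ± 0.06 in wild type and by 1.05 ± 0.06 in cub, an interaction of -0.41 ± 0.08 (adjusted p = 0.0195). These were the called members of 33 NRF2 targets, 2 higher and 1 lower (9.09%, against 1% of all genes), and the median of the list was 0.02 with 17 positive and 16 negative values. Nqo1 (-0.30 ± 0.16, adjusted p = 0.52) and Hmox1 (-0.51 ± 0.21, adjusted p = 0.341), often used as markers of NRF2 activity, did not pass. Gpx2, an epithelial glutathione peroxidase outside the list, rose by 1.91 ± 0.15 in wild type and 0.93 ± 0.15 in cub, an interaction of -0.98 ± 0.21 (adjusted p = 0.0245). Gpx2 was higher in cub at 0 h (gap 0.64 ± 0.15, adjusted p = 0.0139), and its gap at 24 h was not called (-0.34 ± 0.15, adjusted p = 0.204). The calls of Gsr, Cat and Gpx2 were each lost on leaving out any 1 of 4 arrays, with adjusted p of at most 0.0787 for Gsr and Gpx2 without wild-type 0 h replicate 2 and 0.0629 for Cat without cub 0 h replicate 2.

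Aqp3 and Adh6b were lower in unwounded cub ears, with a smaller gap at 24 h. Aqp3, the water and glycerol channel of keratinocytes, was at 10.52, 11.06 and 10.97 in wild type at 0 h and between 9.80 and 10.03 in the 3 cub arrays. At 24 h it was at 12.52, 12.61 and 12.60 in wild type and 12.71, 12.67 and 12.61 in cub. The genotypes were separate before the punch and about level after it, with an interaction of 0.99 ± 0.14 (adjusted p = 0.00113).

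Adh6b, an alcohol dehydrogenase, was at 9.02, 9.22 and 9.08 in wild type at 0 h and 8.90, 8.85 and 9.16 at 24 h, and in cub at 7.54, 7.64 and 7.33 and then 8.45, 8.69 and 8.47. Cub stayed below wild type at both times but rose by 1.03 ± 0.12 (adjusted p = 1.77e-07), while the wild-type change was -0.14 ± 0.12 (adjusted p = 0.402). The interaction was 1.17 ± 0.17 (adjusted p = 0.000998) at this row and 0.31 ± 0.10 at a second row of low signal, and the related Adh6a may share signal. Rdh10, which oxidises retinol on the way to retinoic acid, rose by 0.55 ± 0.07 and 1.06 ± 0.07 (interaction 0.52 ± 0.10, adjusted p = 0.0166; 0.0518 without cub 0 h replicate 2, the call also being lost without wild-type 0 h replicate 3). The gap of Rdh10 was -0.26 ± 0.07 at 0 h (adjusted p = 0.0415) and 0.26 ± 0.07 at 24 h (adjusted p = 0.0418). Lrat, which stores retinol as esters, went the other way, with a fall of 0.64 ± 0.10 in cub and a wild-type change of 0.06 ± 0.10. Its interaction was -0.70 ± 0.15 (adjusted p = 0.023), and the call was lost on leaving out any 1 of 6 arrays (highest adjusted p = 0.0787, without wild-type 0 h replicate 2). The gap of Lrat was 0.59 ± 0.10 at 0 h (adjusted p = 0.00234) and -0.11 ± 0.10 at 24 h (adjusted p = 0.663). In all, 2 of 28 retinoid, alcohol and xenobiotic enzymes were called higher and 1 lower (10.7%, against 1% of all genes), with a median of -0.05.

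Turning to the genes whose change was lower in cub, 3 markers of the hair follicle bulge and of the basal epidermis had a more negative change. Sostdc1, a secreted inhibitor of BMP and Wnt signals, was at 9.83, 9.72 and 9.67 in wild type at 0 h and 8.91, 9.06 and 8.93 at 24 h, and in cub at 9.66, 9.75 and 9.80 and then 7.83, 8.42 and 7.55. The genotypes overlapped before the punch, and all cub arrays at 24 h lay below wild type although they were spread. The interaction was -1.03 ± 0.18 (adjusted p = 0.00823). Krt15, a keratin of bulge and basal cells, fell from 12.10 ± 0.07 to 10.36 ± 0.19 in wild type and from 11.81 ± 0.14 to 9.28 ± 0.35 in cub, an interaction of -0.78 ± 0.17 (adjusted p = 0.0298). Its cub arrays lay below wild type without overlap already at 0 h, a gap of -0.29 ± 0.12 that was not called (adjusted p = 0.184). Lgr5, a receptor for R-spondins that marks follicle stem cells, fell by 0.73 ± 0.10 in cub, with a wild-type change of -0.11 ± 0.10, an interaction of -0.62 ± 0.14 (adjusted p = 0.0335).

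Those 3 genes were the called members of 26 basal and bulge keratinocyte genes (11.5%, against 1% of all genes), of which 18 had a negative interaction (median -0.08). The Krt15 call was lost on leaving out any 1 of 6 arrays (highest adjusted p = 0.0869, without wild-type 0 h replicate 2), and that of Lgr5 on leaving out any 1 of 8 (0.0953, without wild-type 0 h replicate 3). The mean of the list was 9.59 to 9.71 in wild type and 9.44 to 9.56 in cub at 24 h.

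Gata3, a transcription factor of the inner root sheath and the epidermis, was at 11.18, 10.98 and 11.13 in wild type at 0 h and 10.57, 10.41 and 10.32 at 24 h, and in cub at 11.18, 11.21 and 11.10 and then 9.78, 9.92 and 9.71. The groups overlapped at 0 h and not at 24 h, and the interaction was -0.70 ± 0.10 (adjusted p = 0.00122). Gata3 was the 1 called member of 37 hair follicle keratins and regulators, whose median was -0.07. Axin2, a target and inhibitor of Wnt signalling, fell by 0.97 ± 0.08 and by 1.43 ± 0.08, an interaction of -0.46 ± 0.11 (adjusted p = 0.0409) whose call was lost on leaving out any 1 of 11 arrays (highest adjusted p = 0.117, without cub 0 h replicate 1). It was the 1 called member of 35 activin, TGF-beta, BMP and Wnt signal genes, 22 of which had a negative value (median -0.10). Krt1, a keratin of the suprabasal epidermis, rose by 0.41 ± 0.12 in wild type and fell by 0.30 ± 0.12 in cub, and its interaction of -0.71 ± 0.17 (adjusted p = 0.0435) was lost on leaving out any 1 of 11 arrays (highest adjusted p = 0.129, without cub 0 h replicate 2). Krt1 was higher in cub at both times, with a gap of 1.14 ± 0.12 at 0 h (adjusted p = 1.27e-05) and 0.43 ± 0.12 at 24 h (adjusted p = 0.0337). Krt1 was the 1 called member of 35 epidermal differentiation genes, of which 30 had a negative interaction (median -0.08). Krt24 (0.59 ± 0.15, adjusted p = 0.063) and Krt77 (-0.69 ± 0.28, adjusted p = 0.331) did not pass.

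Cdhr1, a cadherin-related protein, rose strongly in both genotypes but less in cub. It was at 4.88, 4.79 and 4.88 in wild type at 0 h and 8.10, 8.35 and 8.09 at 24 h, and in cub at 4.82, 4.82 and 4.99 and then 7.32, 7.37 and 7.20. The cub arrays at 24 h all lay below the wild-type arrays, and the interaction was -0.91 ± 0.11 (adjusted p = 0.000305). Etv5, an ETS factor induced by MAP kinase signalling, rose by 0.78 ± 0.06 in wild type and 0.38 ± 0.06 in cub (interaction -0.39 ± 0.08, adjusted p = 0.0166, and -0.53 ± 0.11 at its second row). Its adjusted p was 0.0554 without cub 0 h replicate 1, and the call was also lost without cub 24 h replicate 3. Lrig3, of the LRIG family whose member LRIG1 restrains EGFR, fell by 0.86 ± 0.07 and by 1.41 ± 0.07 (interaction -0.55 ± 0.10, adjusted p = 0.0117). They were the 2 called members of 20 MAPK feedback targets (10%, against 1% of all genes), whose median was 0.09.

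The heat shock genes Hspa1a (-0.48 ± 0.11, adjusted p = 0.0396) and Hspb1 (-0.38 ± 0.08, adjusted p = 0.0308) were the 2 called members of 14 (14.3%, against 1% of all genes), both chaperones that fell further in cub. Hspa1a had a gap of -0.05 ± 0.08 at 0 h (adjusted p = 0.831) and was lower in cub at 24 h (-0.53 ± 0.08, adjusted p = 0.000417). Hspb1 was higher in cub at 0 h (0.36 ± 0.06, adjusted p = 0.00129) and about level at 24 h (-0.02 ± 0.06, adjusted p = 0.943). The Hspa1a call was lost on leaving out any 1 of 9 arrays (highest adjusted p = 0.117, without cub 24 h replicate 3) and that of Hspb1 on leaving out any 1 of 8 (0.0993, without cub 0 h replicate 2), and the near-identical Hspa1b may share the Hspa1a signal. Cell division genes gave 29 negative interactions of 29 tested, with a median of -0.26, but only Kif20a, a mitotic kinesin, was called (-0.65 ± 0.15, adjusted p = 0.0431). That call was lost on leaving out any 1 of 10 arrays (highest adjusted p = 0.115, without cub 24 h replicate 3). No test of the list was made, and the share of negative interactions over all genes was not counted. Its mean went from 7.63 to 7.84 at 0 h to 8.09 to 8.4 at 24 h in wild type, and from 7.70 to 7.78 to 7.90 to 7.99 in cub, so that the arrays of the genotypes overlapped at 0 h and were separate at 24 h. In wild type 17 of the 29 rose and 0 fell, and in cub 9 rose and 7 fell.

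**Figure D3:**
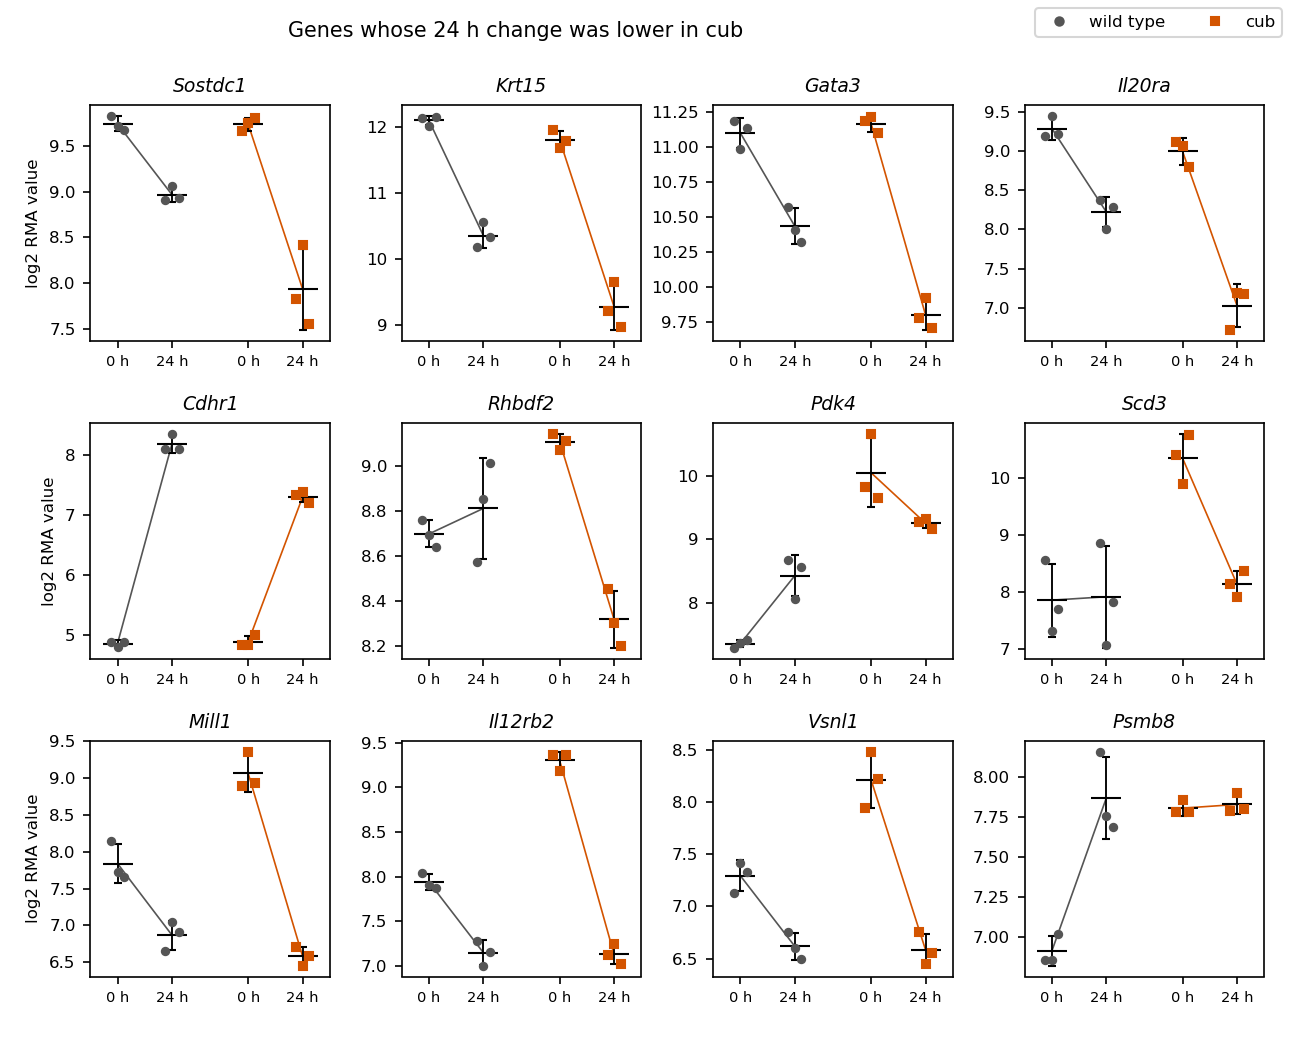
Log2 RMA values of 12 genes whose 24 h change was lower in cub, drawn as for the higher genes, with points for arrays, bars for group means and whiskers for the SD (n = 3). Sostdc1, Gata3 and Cdhr1 overlap at 0 h and part by 24 h. Krt15 and Il20ra are lower in cub at both times, with the wider gap at 24 h. Mill1, Il12rb2 and Vsnl1 are higher in cub at 0 h and level at 24 h.

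The largest negative interactions belonged to genes that were high in unwounded cub ears. Pdk4, a kinase that shuts off pyruvate dehydrogenase and so favours fatty acid use, was at 7.29, 7.37 and 7.41 in wild type at 0 h and 9.83, 10.67 and 9.66 in cub. At 24 h it was at 8.67, 8.06 and 8.56 in wild type and 9.28, 9.32 and 9.17 in cub. Cub was above wild type without overlap at both times, but the gap was 2.70 ± 0.22 at 0 h and 0.83 ± 0.22 at 24 h. It did not narrow steadily. In the separate arrays of the earlier times it was 2.12 ± 0.25 at 15 min (adjusted p = 0.000126) and 0.27 ± 0.22 at 2 h (adjusted p = 0.603). Pdk4 rose by 1.07 ± 0.22 in wild type (adjusted p = 0.000416) and fell by 0.80 ± 0.22 in cub (adjusted p = 0.0052), an interaction of -1.87 ± 0.32 (adjusted p = 0.00514). It was the 1 called member of 19 fatty acid oxidation and fuel switch genes, of which 17 had a negative interaction (median -0.22).

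Scd3, a stearoyl-CoA desaturase of sebaceous glands, was at 8.56, 7.31 and 7.70 in wild type at 0 h and 8.85, 7.07 and 7.83 at 24 h, and in cub at 10.39, 9.89 and 10.74 and then 8.14, 7.91 and 8.36. The cub values lay above all wild-type values at 0 h and overlapped them at 24 h, and the wild-type values were widely spread at both times. In the separate arrays of the earlier times the gap was 2.87 ± 0.40 at 15 min (adjusted p = 0.000884) and 1.27 ± 0.36 at 2 h (adjusted p = 0.0459). The interaction was -2.26 ± 0.50 (adjusted p = 0.033), and its call was lost on leaving out any 1 of 8 arrays (highest adjusted p = 0.1, without wild-type 0 h replicate 2). Related Scd genes may share probe signal. Scd3 was the 1 called member of 27 sebaceous gland genes, of which 20 had a negative interaction (median -0.18), and the list mean at 24 h was 9.66 to 9.73 in wild type and 9.49 to 9.52 in cub.

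Mill1 and Il12rb2 were likewise higher in cub at 0 h. Mill1, an MHC class I-like protein, was at 8.14, 7.72 and 7.66 in wild type at 0 h and 6.65, 7.04 and 6.91 at 24 h, and in cub at 8.90, 9.36 and 8.93 and then 6.70, 6.45 and 6.58. The gap was 1.22 ± 0.14 at 0 h (adjusted p = 2.18e-05) and -0.29 ± 0.14 at 24 h (adjusted p = 0.261), and the interaction was -1.51 ± 0.19 (adjusted p = 0.000313). Il12rb2, a subunit of the interleukin 12 receptor, was at 8.04, 7.91 and 7.87 in wild type at 0 h and 9.36, 9.19 and 9.36 in cub. At 24 h it was at 7.28, 7.0 and 7.16 and at 7.12, 7.24 and 7.02. Its genotypes were thus separate before the punch and overlapped after it, with an interaction of -1.38 ± 0.20 (adjusted p = 0.00124).

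Psmb8, a subunit of the immunoproteasome, rose by 0.96 ± 0.14 in wild type (adjusted p = 5.79e-06), and its change in cub was 0.02 ± 0.14 (adjusted p = 0.92). The gap was 0.89 ± 0.14 at 0 h and -0.04 ± 0.14 at 24 h, an interaction of -0.93 ± 0.19 (adjusted p = 0.0218) that was lost on leaving out any 1 of 4 arrays (highest adjusted p = 0.061, without wild-type 0 h replicate 2). Tap1, a peptide transporter for MHC class I named after its values were seen, rose by 0.44 in wild type and fell by 0.33 in cub (interaction -0.77 ± 0.18, adjusted p = 0.0377). Of 20 interferon-stimulated genes, 0 were called and 16 had a negative interaction (median -0.27). Their mean was 6.38 to 6.47 in wild type and 6.60 to 6.79 in cub at 0 h, without overlap, and 7.39 to 7.89 and 7.55 to 7.86 at 24 h, with overlap.

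Vsnl1, a neuronal calcium sensor, was at 7.13, 7.42 and 7.33 in wild type at 0 h and 7.94, 8.48 and 8.22 in cub, and at 6.75, 6.60 and 6.50 against 6.75, 6.45 and 6.55 at 24 h. The gap present before the punch was gone after it, and the interaction was -0.95 ± 0.16 (adjusted p = 0.00465). Defb1, an epithelial beta-defensin, fell by 1.11 ± 0.12 in cub, with a wild-type change of -0.27 ± 0.12 (interaction -0.84 ± 0.18, adjusted p = 0.023). Pla2g2f, an epidermal phospholipase, fell by 0.69 ± 0.06 and by 1.05 ± 0.06 (interaction -0.36 ± 0.08, adjusted p = 0.0302). Prr9, a proline-rich protein, had an interaction of -1.15 ± 0.26 (adjusted p = 0.0349). Defb1, Pla2g2f and Prr9 were higher in cub at 0 h (gaps of 0.65, 0.28 and 0.87, adjusted p = 0.00433, 0.00589 and 0.00851). At 24 h their gaps were not called (-0.19, -0.08 and -0.28, adjusted p = 0.478, 0.508 and 0.463). The Defb1 call was lost on leaving out any 1 of 4 arrays (highest adjusted p = 0.0787, without wild-type 0 h replicate 2). The calls of Pla2g2f and Prr9 were each lost on leaving out any 1 of 7 (0.0996 without cub 0 h replicate 2 and 0.105 without wild-type 0 h replicate 3).

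Markers of other tissues were called singly. Myh2, a fast muscle myosin, fell by 1.36 ± 0.19 in cub, with a wild-type change of -0.02 ± 0.19 (interaction -1.33 ± 0.27, adjusted p = 0.0195), and was the 1 called member of 35 skeletal muscle genes, whose median was 0.07. The gap of Myh2 was 1.08 ± 0.19 at 0 h (adjusted p = 0.00258) and -0.25 ± 0.19 at 24 h (adjusted p = 0.561). The list mean was 9.91 to 10.21 in wild type and 10.25 to 10.38 in cub at 0 h, and 9.20 to 9.57 and 9.53 to 9.68 at 24 h. Its part in the Myh2 result was not tested. The Myh2 call was lost on leaving out any 1 of 4 arrays (highest adjusted p = 0.0651, without wild-type 0 h replicate 2). Fcrls, an Fc receptor-like protein of tissue macrophages, was highest in cub 0 h replicate 2, the array that was also high in macrophage and adipocyte genes, at 7.51 against 6.77 and 6.69. Its interaction was -1.20 ± 0.26 (adjusted p = 0.0302), and the call was lost without that array and on leaving out any 1 of 6 others (highest adjusted p = 0.0787, without wild-type 0 h replicate 2). The gap of Fcrls was 1.14 ± 0.19 at 0 h (adjusted p = 0.0013) and -0.06 ± 0.19 at 24 h (adjusted p = 0.93).

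Eng, a co-receptor for TGF-beta on endothelium, rose by 0.81 ± 0.08 in wild type and 0.29 ± 0.08 in cub, and Cdh5, the cadherin of endothelial junctions, rose by 0.53 ± 0.07 in wild type with a cub change of 0.06 ± 0.07. Their interactions were -0.52 ± 0.11 (adjusted p = 0.0231) and -0.47 ± 0.10 (adjusted p = 0.0248). Both were higher in cub at 0 h and about level at 24 h. They were the 2 called members of 17 endothelial genes (11.8%, against 1% of all genes), of which 14 had a negative interaction (median -0.20). The mean of the list was 7.86 to 7.93 in wild type and 8.15 to 8.34 in cub at 0 h, and 8.08 to 8.20 and 8.32 to 8.33 at 24 h, so the list was higher in cub without overlap at both times. The Eng call was lost on leaving out any 1 of 4 arrays (highest adjusted p = 0.0769, without cub 0 h replicate 2) and that of Cdh5 on leaving out any 1 of 5 (0.0824, without wild-type 0 h replicate 2).

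Of 16 tested ligands, receptors and sheddases, Rhbdf2 was the 1 called gene (6.25%, against 1% of all genes), and the median was -0.08. Areg, the gene of amphiregulin, was listed but not among the genes analysed here, so nothing is said of it. The ligand genes Hbegf (0.28 ± 0.19, adjusted p = 0.66), Epgn (-0.41 ± 0.23, adjusted p = 0.552), Btc (-1.05 ± 0.26, adjusted p = 0.0596) and Nrg1 (0.51 ± 0.12, adjusted p = 0.0523) did not pass. Hbegf rose by 2.81 ± 0.13 in wild type and 3.08 ± 0.13 in cub. The gap of Epgn was 1.0 ± 0.16 before the punch (adjusted p = 0.00129) and 0.59 ± 0.16 after 24 h (adjusted p = 0.0366), both with cub higher. The standard errors of these 4 interactions, 0.12 to 0.26, leave room for a difference in either direction for Hbegf and Epgn.

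**Figure D4:**
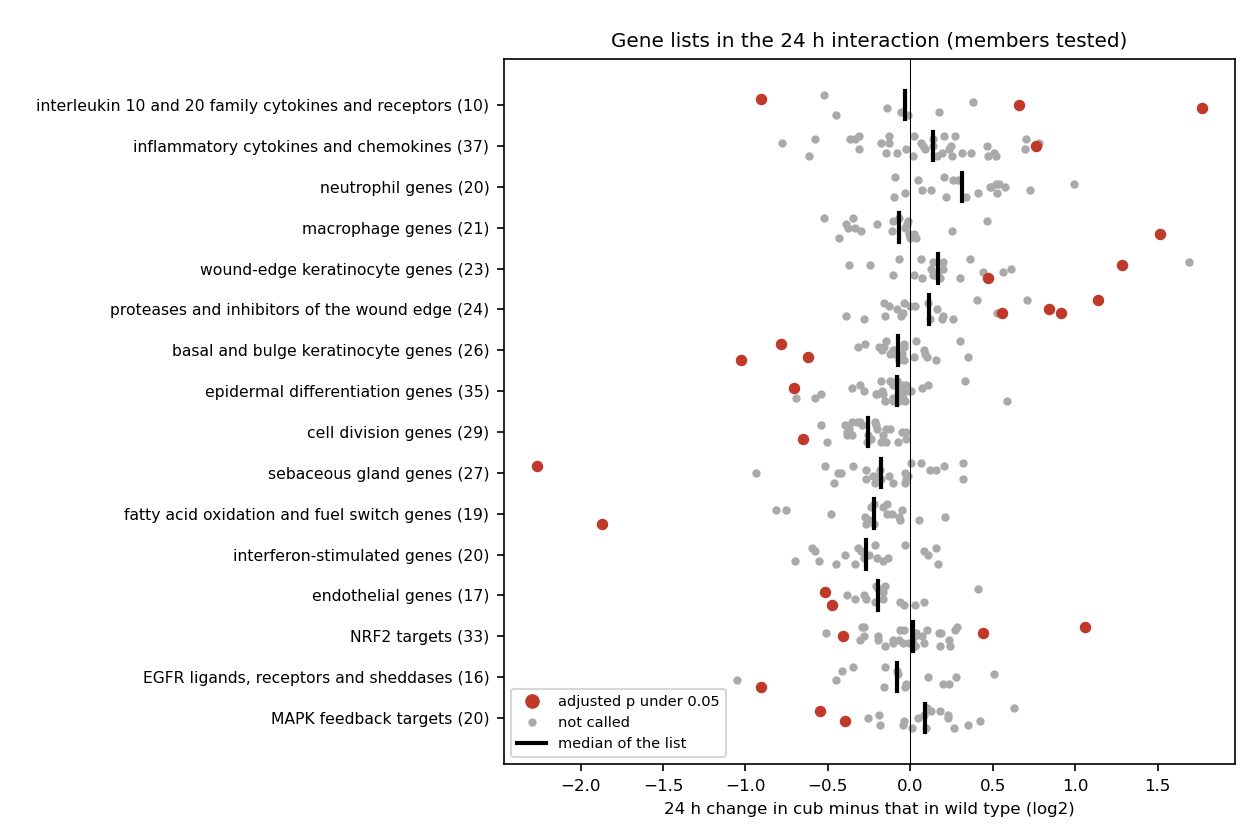
Interaction (24 h change in cub minus that in wild type, log2) of each tested member of 16 gene lists, 1 row a list with its number of members, called genes in red, others in grey and the list median as a black bar. Cell division genes lie below 0 throughout with a median of -0.26, and 17 of 20 neutrophil genes lie above 0 with a median of 0.32.

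The arrays at 15 min (3 wild type and 2 cub) and 2 h (3 of each), which share no sample with those at 0 h and 24 h, show when the gaps were present. For the 80 called genes with the larger gap at 0 h, the sign of the gap at 15 min was that at 0 h for 18 of 18 higher and 61 of 62 lower genes, against 62.5% of all genes. At 2 h it was the same for 16 of 18 and 56 of 62, against 58.4% of all genes. The gap was itself called with that sign at 15 min for 8 higher and 25 lower genes, where 3.45% of all genes were called (1.57% higher in cub, 1.88% lower), and at 2 h for 4 and 14, where 4.41% were (3.84% higher, 0.577% lower). The median gap of the 62 lower genes was 0.43 at 0 h, 0.32 at 15 min, 0.16 at 2 h and -0.12 at 24 h.

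For the 120 genes with the larger gap at 24 h, the earlier arrays showed little of it. The median gap of the 87 lower genes was 0.12 at 0 h, 0.07 at 15 min, -0.01 at 2 h and -0.40 at 24 h. In the median, these lower genes were thus slightly higher in cub at 0 h and 15 min. That of the 33 higher genes was -0.05, 0.06, 0.07 and 0.67 at the same times. The gap had its 24 h sign at 15 min for 19 of 33 higher and 24 of 87 lower genes, against 60.8% of all genes, and at 2 h for 23 of 33 and 49 of 87, against 52.9%. It was called with that sign at 15 min for 0 higher and 1 lower genes, and at 2 h for 5 and 2. Arc was an exception at 2 h, with a gap of 1.13 ± 0.15 (adjusted p = 0.000164) after 0.11 ± 0.17 at 15 min (adjusted p = 0.715). For Il24 the gap was -0.09 ± 0.13 at 15 min and 0.24 ± 0.11 at 2 h (adjusted p = 0.696 and 0.27), and for Hmga2 it was 0.13 ± 0.12 and -0.12 ± 0.11 (adjusted p = 0.546 and 0.644). Interactions of the earlier times, which use the same 0 h arrays, were called for 0 genes at 15 min by limma (1740 at an unadjusted p under 0.05) and for 26 genes at 2 h (0.13% of all, 0.105% higher and 0.0251% lower).

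**Figure D5:**
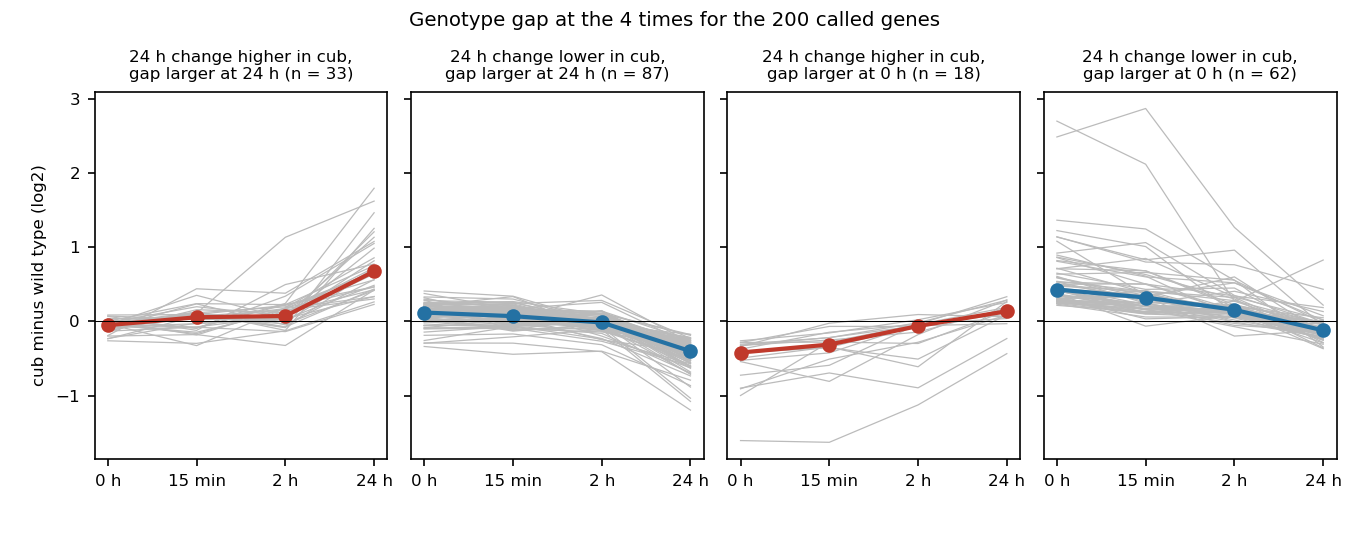
Cub minus wild type (log2) at 0 h, 15 min, 2 h and 24 h for the 200 called genes, in 4 panels by direction and by the time of the larger gap, with each gene as a grey line and the median as a coloured line. Medians of the genes with the larger gap at 24 h stay near 0 until 2 h. Those of the other 80 genes shrink from 0 h to 2 h and have the opposite sign at 24 h.

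Across the 37 lists, 39 of 788 tested genes were called (4.95%), 17 higher and 22 lower, against 1% of all genes. The lists hold genes picked with earlier results of these data known, so this share is no independent evidence. Calls of 23 of the 52 named called genes held on leaving out each of the 12 arrays in turn. They were Il24, Arc, Chil3, Hmga2, Fgf23, Psg18, Mmp3, Mmp1a, Plau, Bdkrb1, Aqp3, Adh6b, Gm11545 and Il33 on the higher side, and Pdk4, Mill1, Il12rb2, Vsnl1, Rhbdf2, Cdhr1, Sostdc1, Gata3 and Lrig3 on the lower side. In the fit of only the 12 arrays, 3 of these lost the call, Sostdc1 (adjusted p = 0.0616), Il33 (0.0574) and Lrig3 (0.0549). The other 29 lost the call without at least 1 array, most often without wild-type 0 h replicate 2 (24 genes), cub 0 h replicate 2 (23), cub 24 h replicate 3 (22) or wild-type 0 h replicate 3 (21).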

How the data were processed

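Ear RNA of 12 wild-type and 11 cub mice was hybridised to Affymetrix gene arrays, 1 per mouse. The authors deposited log2 values. Per the submitters' processing notes these came from Expression Console 1.1 with the RMA method, whose quantile step gives arrays a common distribution and so hides a change of total RNA. The genome build is not given in the sources used here, nor is the summarization level. Of 35556 rows, 21789 had 1 gene symbol, 1621 several and 12146 none; the last 2 kinds were left out. Gene IDs of 21698 rows matched the GRCm38.p6 table. The row with the highest mean represented each of 999 genes with several rows, which left 19938 genes.

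Group means were estimated over all arrays (limma 3.58.1, R 4.3.3) with empirical Bayes moderation (15 residual and 5.61 prior degrees of freedom). Tests were two-sided and adjusted by the Benjamini-Hochberg method at 0.05, as were all values called changed. The number of arrays limits the precision. The authors' R/maanova test was not run.

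The genes named are the 15 with the largest interaction in each direction, up to 4 called members of each of 37 lists, and fixed genes, of which 1 was not analysed here. The lists name 853 genes: 788 entered the fit (7 by an older symbol) and 65 were not analysed here. Lists were described by counts and medians, without a test. The members and lists were chosen with earlier results of these data known. The code was tested on simulated data. Alternatives were 2 normalizations, a filter on means of at least 6, other moderation, weights, q values, rows, arrays and a replicate block.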

Additional observations from a re-analysis of the deposited data

Results flagged for a closer look

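For 52 named genes, the change from 0 h to 24 h differed between cub and wild type by the interaction test (limma, adjusted p under 0.05). The values below are interactions in log2 units, cub minus wild type, and their errors and levels are given in the results.

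Positive interactions among secreted and receptor genes were 1.77 for Il24, 1.27 for Fgf23, 1.27 for Psg18, 1.21 for Saa3, 0.76 for Il33, 0.66 for Il19 and 1.03 for Bdkrb1. Among proteases they were 1.14 for Mmp3, 0.91 for Mmp1a, 0.84 for Mmp1b and 0.56 for Plau. Regulators of transcription and signalling had 1.73 for Arc, 1.28 for Hmga2, 0.86 for E2f7 and 0.47 for Stk17b. The chitinase-like protein Chil3 had 1.51. Transporters and enzymes had 1.17 for Adh6b, 1.06 for Slc7a11, 0.99 for Aqp3, 0.52 for Rdh10 and 0.44 for Gsr, and Gm11545 had 0.86.

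Negative interactions among enzymes were -2.26 for Scd3, -1.87 for Pdk4, -0.98 for Gpx2, -0.93 for Psmb8, -0.70 for Lrat, -0.41 for Cat and -0.36 for Pla2g2f. Receptors and other surface proteins had -1.51 for Mill1, -1.38 for Il12rb2, -1.20 for Fcrls, -0.91 for Cdhr1, -0.90 for Rhbdf2, -0.90 for Il20ra, -0.62 for Lgr5, -0.55 for Lrig3, -0.52 for Eng and -0.47 for Cdh5. Keratins, structural and epidermal genes had -1.33 for Myh2, -1.15 for Prr9, -0.84 for Defb1, -0.78 for Krt15, -0.71 for Krt1 and -0.65 for Kif20a. Signal modulators, factors and chaperones had -1.03 for Sostdc1, -0.95 for Vsnl1, -0.70 for Gata3, -0.46 for Axin2, -0.39 for Etv5, -0.48 for Hspa1a and -0.38 for Hspb1.

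The sign of the change was opposite in the genotypes, with both changes past the threshold, for 4 of the 200 called genes. They were Pdk4, Krt1 and, named after their values were seen, Tap1 and Psrc1, each of which rose in wild type and fell in cub.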

How the results depend on the processing

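No named interaction changed sign among the called genes, and 20 of the 52 were called in all 23 alternatives; 48 genes, 16 higher and 32 lower, were called in the main fit and in all 22 alternatives with 1 row per gene. The 9 fixed genes that did not pass stayed so, except Btc in 2 alternatives, Nrg1 in 5 and Krt24 in 1. Against 200 calls (51 higher, 149 lower, 39 in lists, 120 with the larger gap at 24 h and 80 at 0 h), the fit of only the 12 arrays gave 74 (24, 50, 20, 42 and 32), where fewer samples estimate the spread. Without moderation there were 131 calls, 92 lower, 23 in lists and 50 with the larger gap at 0 h. Array weights gave 437 (98 higher, 339 lower, 277 with the larger gap at 24 h and 160 at 0 h). A test of every row gave 120, of which 84 were lower, 22 in lists, 73 with the larger gap at 24 h and 47 at 0 h; more features were tested there. Quantile normalization gave 86 higher calls and 121 with the larger gap at 0 h. The cause of these shifts was not tested. Leaving out 1 array in turn gave 83 to 317 calls, 28 to 69 higher, 55 to 248 lower, 20 to 51 in lists, 61 to 228 with the larger gap at 24 h and 22 to 94 at 0 h; where a group kept 2 arrays, the spread was pooled over the groups.

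With the replicate number as a block there were 161 calls, of which 157 were among the 200. The numbers were not taken to pair the mice: deviations of same-numbered arrays correlated at -0.19 to 0.21 (median 0.06, 18 pairs), and 7 of 12 arrays correlated best with their own number. The signal over background of each gene was not measured here, so no limit of detection is given. In both genotypes the 0 h levels of Il24, Chil3, Mmp1a, Mmp1b, Psg18, Saa3 and Cdhr1, among others, lay below the array medians of 6.37 to 6.46. Whether these genes stood above background at 0 h was not tested.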
